A study of Homo sapiens with 27 samples.

Results

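The enzymes described here carry out the mitochondrial oxidation of fatty acids. They are the products of 10 genes listed by name (CPT1A, CPT2, ACADM, ACADS, ACADVL, HADHA, HADHB, HADH, ETFA and ETFDH), and all 10 were found among the 27115 genes of each library. RNA was taken from the diffuse large B-cell lymphoma (DLBCL) lines Karpas422, OCI-Ly1 and HBL1, which the study assigns to the OXPHOS, germinal center B-cell and activated B-cell subtypes. By its methods OCI-Ly1 was grown in Iscove's medium, and Karpas422 and HBL1 in RPMI with added glutamine and HEPES. Each line had been infected 8 days earlier with lentivirus carrying a scrambled control hairpin (shCTRL) or 1 of 2 hairpins against SIRT3 (shSIRT3-1 and shSIRT3-2), the mitochondrial deacetylase that the study depleted. Cells of all 9 groups carried the same kind of vector, with puromycin resistance and yellow fluorescent protein, so no group was left uninfected. Each group had 3 libraries, 27 in all, and the study describes the knockdown in each line as replicated. Neither it nor the labels say whether a replicate was an infection or culture of its own, so p-values measure the spread between these libraries, which may be technical in part.

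Long-chain fatty acids enter the mitochondrion as carnitine esters. CPT1A makes the ester at the outer membrane and CPT2 returns the fatty acid to coenzyme A inside. Beta-oxidation then shortens the chain in rounds of dehydrogenation, hydration, a further dehydrogenation and thiolysis. The electrons of the first step pass through ETFA, a subunit of the electron transfer flavoprotein, and ETFDH to ubiquinone, and several of these enzymes are known substrates of SIRT3 as proteins, which an RNA measurement does not report.

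The number of reads assigned to genes ranged from 28694398 to 53405456, and the median library had 45669254. The deposited values are named FPKM, but each is a whole multiple of the value of 1 read. That value is the same for every gene of a library, so the deposited values are written here as CPM, reads scaled by 1 divisor per library. Their sums over genes were not equal. In HBL1 the sums were 403146 to 431090 with shSIRT3-1 and 438870 to 451205 with shCTRL, and fold changes there contain this difference. CPM is not divided by gene length, so it compares 1 gene between libraries. Levels of different genes are compared as CPM per kb of the main GENCODE transcript. In 18 of 18 knockdown libraries SIRT3 lay under the control mean of the line, but the hairpins depleted it unequally. With shSIRT3-1 it was left at 18.3% of control over the 3 lines and with shSIRT3-2 at 38.8%, which is 2.12-fold higher (limma adjusted p = 4.6e-05). Depletion and the sequence of the hairpin therefore cannot be told apart where the hairpins are compared. All 6 B-cell markers were above 1 CPM in every library, whereas the summed level of the T-cell, myeloid and stromal lists stayed at or below 2.82, 1.24 and 1.36 CPM, and the epithelial list reached 7.42 CPM in HBL1, mostly EPCAM. The library HBL1 shSIRT3-1 replicate 3 stood apart, with a mean correlation of 0.958 to its own group across genes. The next lowest library had 0.975. Results of CPT2, ACADVL, HADH and ETFDH are given with and without the library that stood apart. For CPT1A and ACADS its value is only pointed out. In RNA from whole cultures, fewer cells of a kind and less RNA per cell cannot be told apart.

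The sequences before the start sites of 3 members are shown because these genes carry the results below. HADHB shares its promoter interval with HADHA, and CPT1A and ETFA are the members that were lower with both hairpins over the 3 lines combined. Each is the 250 bases before the start of the main GENCODE transcript in hg19 (GRCh37), 5′ to 3′ on the strand of the gene. HADHB is at chr2:26467557-26467806 on the plus strand, ETFA at chr15:76603811-76604060 on the minus strand and CPT1A at chr11:68609385-68609634 on the minus strand. Capitals mark GC boxes (GGGCGG) and CCAAT boxes (CCAAT) on either strand. In ETFA a GC box and a CCAAT box overlap.
HADHB: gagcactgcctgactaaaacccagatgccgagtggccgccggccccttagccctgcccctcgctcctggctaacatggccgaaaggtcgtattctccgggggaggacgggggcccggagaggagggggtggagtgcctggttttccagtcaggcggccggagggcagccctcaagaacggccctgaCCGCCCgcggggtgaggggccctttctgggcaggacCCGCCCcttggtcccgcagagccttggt
ETFA: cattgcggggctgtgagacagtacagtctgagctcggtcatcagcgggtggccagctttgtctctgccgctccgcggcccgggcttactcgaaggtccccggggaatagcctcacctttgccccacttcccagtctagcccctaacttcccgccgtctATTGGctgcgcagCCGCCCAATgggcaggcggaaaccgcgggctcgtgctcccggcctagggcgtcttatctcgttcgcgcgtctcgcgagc
CPT1A: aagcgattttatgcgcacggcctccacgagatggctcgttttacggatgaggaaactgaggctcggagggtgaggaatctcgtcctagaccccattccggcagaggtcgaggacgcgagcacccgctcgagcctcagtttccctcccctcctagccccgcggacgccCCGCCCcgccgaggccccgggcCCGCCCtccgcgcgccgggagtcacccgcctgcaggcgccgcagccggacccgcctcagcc
A GC box was found before 9 of the 10 members, all but ETFDH, and before 60.2% of 18308 promoters of the same length. The windows of HADHA and HADHB overlap, and the only GC box of HADHA is also a box of HADHB, so these members are not counted independently. A CCAAT box was found before ETFA and HADH, 2 of 10 members, and before 34.2% of all promoters. The letters searched for the estrogen-related receptor (TCAAGGTCA) and for ATF4 with C/EBP (TTGCATCA), each on both strands, matched 0 members, beside 0.147% and 0.584% of all promoters. The full repeat bound by the peroxisome proliferator-activated receptors and the palindrome bound by NRF1 also matched 0 members, beside 0.0328% and 1.52% of all promoters. A match describes letters only, and a missing match says only that these letters are not in the window.

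The question first asked was how much of each transcript these lymphoma lines hold without SIRT3 depletion. In shCTRL cells ACADM, the medium-chain acyl-CoA dehydrogenase, had the highest level per length in all 3 lines, at 64.7 ± 3.4 CPM per kb in Karpas422, 73.9 ± 11 for OCI-Ly1 and 135 ± 6.8 for HBL1 (SD, n = 3 each). ACADS, the short-chain dehydrogenase, had the lowest, at 1.11 ± 0.084, 3.31 ± 0.11 and 2.30 ± 0.25 CPM per kb. Between these were ETFA, HADHA and ACADVL, then HADHB and HADH, and then CPT1A, CPT2 and ETFDH, with places that differed by line. In Karpas422, neighbours in the order such as HADHA at 35.0 ± 2.3 and ACADVL at 33.2 ± 0.36 CPM per kb lay within their spread. In OCI-Ly1 the same held for ETFA, ACADVL, HADH and HADHA, with means between 37.1 and 39.5 CPM per kb. The order depends on the transcript used for the length. With the longest transcript of each gene, 3 of 10 members kept their place, and the median of ACADM over all libraries was 28.4 CPM per kb in place of 76.7, below the 37.4 of HADHA.

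**Figure D1:**
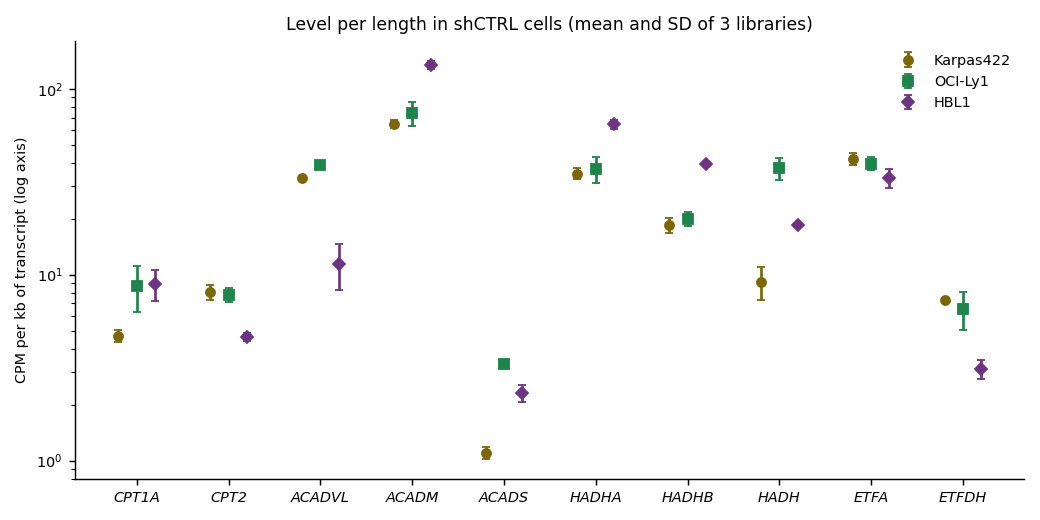
Level of each enzyme in shCTRL cells, as CPM per kb of the main transcript on a log axis. Symbols are means of 3 libraries and bars are SD, and ACADM is highest and ACADS lowest in each line.

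HBL1 held more transcript of 6 enzymes and less of 3 than Karpas422 did. A gene was called where limma gave a change of more than 1.5-fold with an adjusted p (Benjamini-Hochberg) under 0.05. By this rule 9 of 10 members differed between these lines, beside 54.6% of the 12607 genes tested. Higher in HBL1 were CPT1A, ACADM, ACADS, HADHA, HADHB and HADH, with log2 fold changes between 0.88 and 1.09. Lower were CPT2 (−0.79), ACADVL (−1.57) and ETFDH (−1.24). ETFA was lower by less than 1.5-fold, with a log2 fold change of −0.35 (limma adjusted p = 0.022), so that all 10 passed the adjusted p at any fold (background 67.8%).

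Because OCI-Ly1 was grown in another medium, line and medium cannot be told apart where it is compared with the other lines. Against OCI-Ly1, 7 of 10 members were called in HBL1 (background 54.6% of genes), and 8 at any fold (background 67.3%). ACADM (0.88), HADHA (0.81) and HADHB (0.97) were higher, and CPT2 (−0.75), ACADVL (−1.79), HADH (−1.01) and ETFDH (−1.05) were lower, all as log2 fold changes. Karpas422 and OCI-Ly1 differed in fewer of these genes, 3 of 10 at 1.5-fold (background 50.8%) and the same number at any fold (background 63.6%), and all of them were lower in Karpas422. They were CPT1A with a log2 fold change of −0.86, ACADS with −1.54 and HADH with −2.03. HADH, which oxidizes short- and medium-chain 3-hydroxyacyl-CoA, spanned 16.6 ± 3.3 CPM in Karpas422, 33.4 ± 0.34 in HBL1 and 67.6 ± 9.1 in OCI-Ly1 (SD, n = 3 each). ACADVL, the very long-chain dehydrogenase, showed another order, with 25.0 ± 6.9 CPM in HBL1, 72.6 ± 0.79 in Karpas422 and 84.5 ± 1.9 in OCI-Ly1. For the median member, 73.8% of the variance over 27 libraries lay between lines, 14.4% between hairpins within a line and 11.8% between replicates, beside 72.3%, 16.2% and 8.71% for the median gene. CPT1A and ETFA were the exceptions, with 26.3% and 24.1% between lines.

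The main comparison asked which enzymes changed when SIRT3 was depleted. Over the 3 lines, CPT1A and ETFA were lower with both hairpins, while HADH, ACADM, HADHB and CPT2 changed with 1 hairpin and differed between the hairpins. With shSIRT3-1, 1 of 10 members was called at 1.5-fold (CPT1A, lower; background 13% of 13076 genes), and 5 of 10 had an adjusted p under 0.05 at any fold, 3 lower and 2 higher (background 37.9%). With shSIRT3-2, 0 of 10 were called at 1.5-fold by limma, edgeR or DESeq2, or at an unadjusted p under 0.05 (background 13.5%), and 3 of 10 at any fold, all lower (background 38.1%). Members changed with both hairpins in the same direction at any fold were 2 of 10, or 20%, beside 18.2% of all genes. The median log2 fold change of the members was −0.06 with shSIRT3-1 and −0.16 with shSIRT3-2, and those of all genes were −0.05 and −0.03. Under quantile normalization both medians with shSIRT3-1 turned to 0.03, that of the members and that of all genes. Both contrasts share the control libraries.

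**Figure D2:**
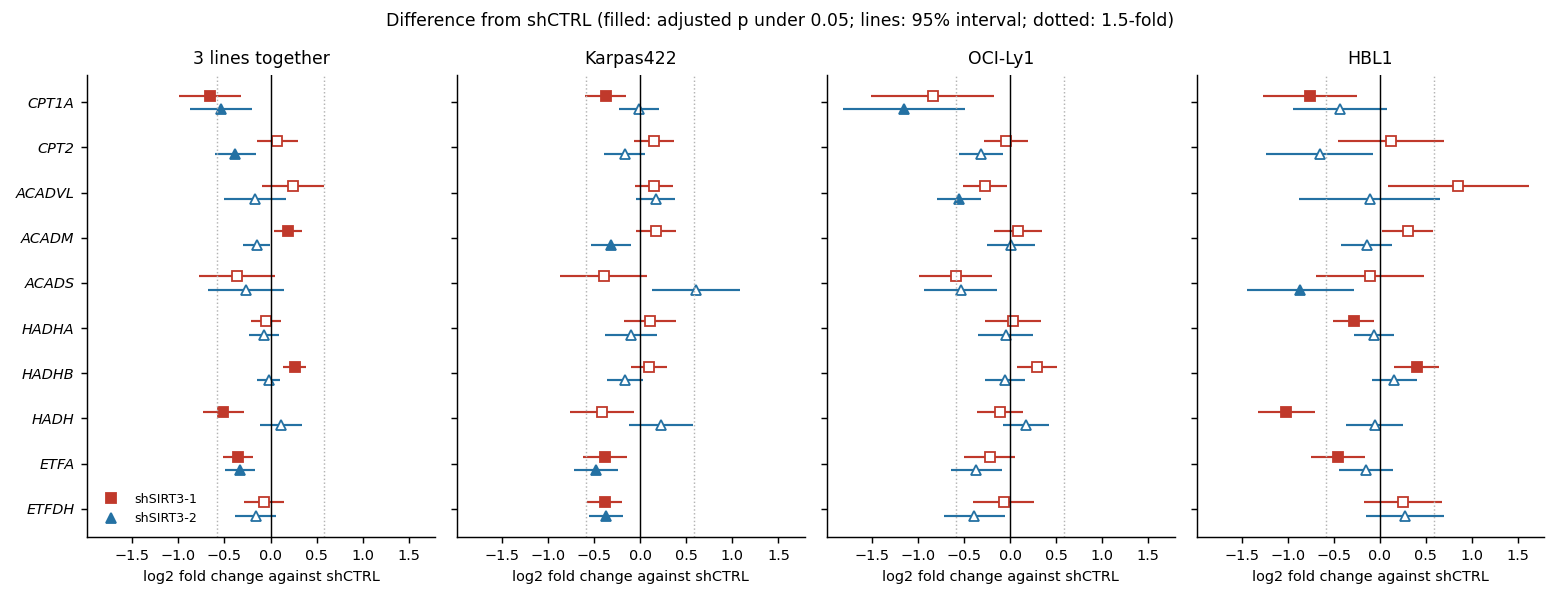
Log2 fold change of each enzyme against shCTRL, over the 3 lines together and in each line alone. Symbols are limma estimates, filled at an adjusted p under 0.05, with 95% intervals as lines and 1.5-fold as dotted lines, and CPT1A and ETFA are filled left of 0 with both hairpins over the 3 lines and HADH with shSIRT3-1 alone, whereas HADHA in HBL1 loses its call under other scalings.

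CPT1A, the regulated entry step of the pathway, lies at chr11:68522088-68611878 on the minus strand. In Karpas422 its CPM was 25.1, 22.5 and 26.2 with shCTRL, 18.2, 20.7 and 17.8 with shSIRT3-1 and 25.0, 25.5 and 22.5 with shSIRT3-2. In OCI-Ly1 it was 38.9, 60.4 and 37.8, then 34.1, 15.0 and 30.1, then 23.4, 16.3 and 21.1 CPM in the same order of hairpins. In HBL1 it was 42.2, 41.0 and 56.8, then 21.6, 24.8 and 37.5, then 32.2, 29.6 and 41.6 CPM. The value of 37.5 is from the library that stood apart. All libraries with shSIRT3-1 were below every control of their own line, and with shSIRT3-2 this held in OCI-Ly1 only. With the lines combined, CPT1A had a log2 fold change of −0.66 ± 0.16 (SE, limma adjusted p = 0.0025) with shSIRT3-1, which is 63.3% of the control level. It was −0.53 ± 0.16 (limma adjusted p = 0.012) with shSIRT3-2, or 69.0%. The 2 hairpins differed by 0.13, with a 95% interval from −0.21 to 0.46. Within lines CPT1A fell with shSIRT3-1 in Karpas422 (log2 fold change −0.38, limma adjusted p = 0.016) and in HBL1 (−0.76, adjusted p = 0.026), and with shSIRT3-2 in OCI-Ly1 (−1.15, adjusted p = 0.042). In Karpas422 shSIRT3-2 left it at 98.9% of control (−0.02, limma adjusted p = 0.91). Not called either were shSIRT3-2 in HBL1 (−0.43, limma adjusted p = 0.17) and shSIRT3-1 in OCI-Ly1 (−0.84, adjusted p = 0.11). The control OCI-Ly1 shCTRL replicate 2 was the highest library of that line. Without it the OCI-Ly1 value with shSIRT3-2 was −0.93 (limma adjusted p = 0.11). The value over 3 lines with shSIRT3-1 was then −0.56, under 1.5-fold.

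CPT2, the inner-membrane partner of CPT1A, lies at chr1:53662464-53679869 on the plus strand, and its exons overlap those of CZIB on the other strand. It was below the control mean in 9 of 9 libraries with shSIRT3-2 and in 4 of 9 with shSIRT3-1. Combining the lines gave CPT2 a log2 fold change of −0.38 ± 0.11 (SE, limma adjusted p = 0.0075) with shSIRT3-2 and 0.08 ± 0.11 (adjusted p = 0.61) with shSIRT3-1, a difference between hairpins of −0.46 (adjusted p = 0.0024). In HBL1 its CPM was 12.1, 13.2 and 12.2 with shCTRL, 10.1, 11.2 and 22.1 with shSIRT3-1 and 7.95, 7.61 and 8.14 with shSIRT3-2. The value of 22.1 is from the library that stood apart. With that library in the fit, the HBL1 log2 fold change for shSIRT3-2 of −0.65 had an adjusted p of 0.076 (limma), and without it one of 0.00045. The same omission turned the value over 3 lines with shSIRT3-1 from 0.08 to −0.04 (limma adjusted p = 0.71).

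The acyl-CoA dehydrogenases, which start each round of oxidation, did not move together. ACADM (chr1:76190116-76253260, plus strand, exons shared with RABGGTB and the pseudogene DLSTP1) was above the control mean in 9 of 9 libraries with shSIRT3-1 and below it in 8 of 9 with shSIRT3-2. In Karpas422 its CPM was 155, 142 and 142 with shCTRL, 154, 160 and 183 with shSIRT3-1 and 111, 128 and 114 with shSIRT3-2. In HBL1 it was 295, 297 and 323, then 412, 335 and 385, then 299, 293 and 240 CPM. The log2 fold change over 3 lines was 0.19 ± 0.07 (SE, limma adjusted p = 0.042) with shSIRT3-1 and −0.15 ± 0.07 (adjusted p = 0.10) with shSIRT3-2. The hairpins differed by −0.34 (limma adjusted p = 0.00094), and 9 of 27 single-library omissions took the first of these adjusted p-values above 0.05, to at most 0.094.

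ACADVL (chr17:7120444-7128585, plus strand, overlapping DLG4) differed in its response between the lines (limma interaction F test, adjusted p = 0.024). In OCI-Ly1 its CPM was 83.3, 83.5 and 86.6 with shCTRL, 73.4, 62.0 and 75.4 with shSIRT3-1 and 61.3, 51.3 and 60.2 with shSIRT3-2. In HBL1 it was 20.5, 21.5 and 33.0, then 33.3, 32.8 and 78.3, then 20.2, 20.7 and 27.6 CPM. Groups did not overlap in OCI-Ly1, where shSIRT3-2 gave a log2 fold change of −0.56 ± 0.11 (SE, limma adjusted p = 0.018). In HBL1 shSIRT3-1 gave 0.85 ± 0.34 (adjusted p = 0.074), and an adjusted p of 0.0052 when the replicate number was a block, that is, when libraries of the same number were compared. The value of 78.3 CPM is again from the library that stood apart, without which the HBL1 log2 fold change was 0.44 (limma adjusted p = 0.12).

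ACADS (chr12:121163577-121177811, plus strand) also differed in its response between the lines (limma interaction adjusted p = 0.0019). In Karpas422 its CPM was 2.18, 1.88 and 2.10 with shCTRL, 1.36, 1.51 and 1.75 with shSIRT3-1 and 2.66, 2.64 and 4.49 with shSIRT3-2. In HBL1 it was 4.12, 4.80 and 3.92, then 2.95, 3.51 and 5.93, then 2.18, 1.98 and 2.82 CPM. The value of 5.93 is from the library that stood apart. It lay above every HBL1 control, whereas the other shSIRT3-1 values there lay below every control. With shSIRT3-2 all libraries of Karpas422 were above their controls and all of HBL1 were below theirs. The log2 fold change with shSIRT3-2 was 0.60 ± 0.21 (SE, limma adjusted p = 0.056) in Karpas422 and −0.86 ± 0.26 (adjusted p = 0.030) in HBL1. In OCI-Ly1 it was −0.59 and −0.54 with the 2 hairpins (limma adjusted p = 0.071 and 0.085). Pairing the libraries by number made these adjusted p-values 0.032 and 0.037. This gene had as few as 127 reads in a library, the fewest of the 10.

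HADHA and HADHB encode the subunits of the trifunctional protein, which performs the last 3 steps on long chains. They are transcribed away from each other, HADHA at chr2:26413504-26467540 on the minus strand and HADHB at chr2:26466038-26513333 on the plus strand, with start sites 307 bases apart. HADHB was above the control mean in 9 of 9 libraries with shSIRT3-1 and HADHA in 4 of 9. In HBL1 the CPM of HADHB was 79.0, 76.2 and 79.5 with shCTRL, 101, 90.6 and 120 with shSIRT3-1 and 93.1, 85.4 and 83.8 with shSIRT3-2. That of HADHA was 198, 192 and 178, then 164, 161 and 142, then 189, 188 and 168. With shSIRT3-1 in HBL1 no HADHB library reached down to a control, and no HADHA library reached up to one. Over the 3 lines HADHB rose by 0.26 ± 0.06 on the log2 scale (SE, limma adjusted p = 0.0016) with shSIRT3-1 and differed by −0.02 (adjusted p = 0.82) with shSIRT3-2. HADHA differed by −0.05 (adjusted p = 0.65) and −0.07 (adjusted p = 0.51). In HBL1 alone HADHA had a log2 fold change of −0.28 (limma adjusted p = 0.047), and −0.13 (adjusted p = 0.22) under quantile normalization and −0.18 (adjusted p = 0.19) under median-ratio scaling.

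The ratio of HADHB to HADHA in CPM, which does not depend on the library total, was 0.414 ± 0.027 with shCTRL, 0.673 ± 0.15 with shSIRT3-1 and 0.482 ± 0.024 with shSIRT3-2 in HBL1 (SD, n = 3 each). In OCI-Ly1 it was 0.370 ± 0.056, 0.444 ± 0.073 and 0.366 ± 0.0087, and in Karpas422 0.359 ± 0.034, 0.357 ± 0.033 and 0.344 ± 0.051. Both hairpins lay above every control in HBL1, and both overlapped their controls in the other lines. The highest ratio, 0.842, was in the library that stood apart, and the lowest of its group, 0.561, was still above the highest control of 0.445. After each line's mean was subtracted from log2(CPM + 0.1), the 2 genes had a Pearson r of −0.04 over 27 libraries, which share depth and replicate numbers within a line.

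**Figure D3:**
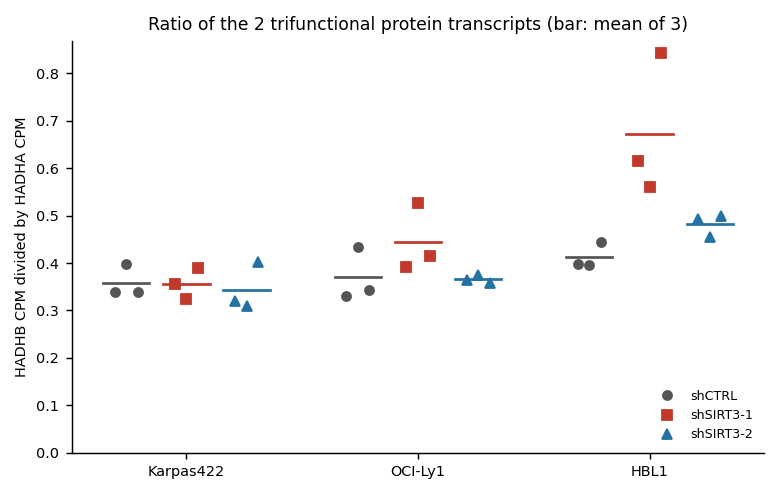
CPM of HADHB divided by CPM of HADHA in each library, by line and hairpin, with bars at the mean of 3. In HBL1 the shSIRT3-1 libraries lie between 0.561 and 0.842 and the controls at or below 0.445, and the groups overlap in Karpas422.

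HADH, at chr4:108910870-108956397 on the plus strand, was the member on which the hairpins differed most. Its CPM in HBL1 was 33.5, 33.1 and 33.7 with shCTRL, 16.6, 19.9 and 13.6 with shSIRT3-1 and 30.01, 31.3 and 35.3 with shSIRT3-2. In Karpas422 it was 16.6, 13.2 and 19.9, then 11.9, 14.4 and 10.6, then 19.0, 19.9 and 18.5 CPM. In OCI-Ly1 it was 78.0, 62.1 and 62.7, then 64.7, 60.2 and 62.6, then 73.6, 83.6 and 71.1 CPM. In HBL1 all shSIRT3-1 libraries lay far under their controls, while those of Karpas422 and OCI-Ly1 overlapped their controls. In each line all shSIRT3-1 libraries lay below all shSIRT3-2 libraries. Over the 3 lines HADH fell with shSIRT3-1 by a log2 fold change of −0.51 ± 0.11 (SE, limma adjusted p = 0.00066), and with shSIRT3-2 it differed by 0.11 ± 0.11 (adjusted p = 0.43). Between hairpins, 1 of 10 members passed 1.5-fold (HADH, background 11.3%) and 4 of 10 passed at any fold (background 31.7%). The hairpin difference of HADH was 0.63 ± 0.11 (SE, limma adjusted p = 0.00011), and 0.55 without the library that stood apart. The response of HADH also differed between lines (limma interaction adjusted p = 0.011). It was −1.02 ± 0.14 in HBL1 (SE, limma adjusted p = 0.00085), 49.5% of the control level, and without the HBL1 line the value over the other lines was −0.26 (adjusted p = 0.069).

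ETFA, at chr15:76480896-76604071 on the minus strand, was below the control mean in 18 of 18 knockdown libraries. In Karpas422 its CPM was 104, 96.0 and 89.5 with shCTRL, 76.5, 79.7 and 65.7 with shSIRT3-1 and 70.1, 75.4 and 61.5 with shSIRT3-2. In OCI-Ly1 it was 98.2, 89.6 and 83.7, then 85.9, 65.4 and 83.0, then 76.2, 64.3 and 70.2 CPM. In HBL1 it was 84.2, 77.0 and 66.2, then 55.2, 63.6 and 47.6, then 67.8, 71.5 and 64.2 CPM. The groups did not overlap in Karpas422 with either hairpin, in OCI-Ly1 with shSIRT3-2 or in HBL1 with shSIRT3-1. The combined estimate for ETFA was a log2 fold change of −0.35 ± 0.08 (SE, limma adjusted p = 0.0012) with shSIRT3-1, 78.3% of the control level. It was −0.33 ± 0.08 (adjusted p = 0.0019) with shSIRT3-2, or 79.3%. No single-library omission of 27 ended either call, with adjusted p at most 0.0050 in limma.

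ETFDH (chr4:159593120-159631894, plus strand, sharing exon sequence with PPID and C4orf46 on the other strand) hands the electrons to ubiquinone. Its CPM in Karpas422 was 23.3, 22.8 and 22.5 with shCTRL, 17.3, 18.3 and 16.7 with shSIRT3-1 and 16.5, 17.9 and 18.6 with shSIRT3-2. Both hairpins lay below every control there, with log2 fold changes of −0.39 ± 0.08 (SE, limma adjusted p = 0.0071) and −0.37 ± 0.08 (adjusted p = 0.0091). In HBL1 it was 10.7, 9.89 and 8.42, then 9.81, 10.2 and 15.0, then 10.9, 10.7 and 13.5 CPM, with log2 fold changes of 0.25 and 0.27 (limma adjusted p = 0.31 and 0.28). The first of these was 0.05 (limma adjusted p = 0.78) without the library that stood apart. The response differed between lines (limma interaction adjusted p = 0.033), and 8 of 27 single-library omissions took this above 0.05, to at most 0.086. Whether the counting used strand is not given in the sources used here, so for ETFDH, ACADVL, ACADM and CPT2 reads of an overlapping gene on the other strand cannot be told apart.

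**Figure D4:**
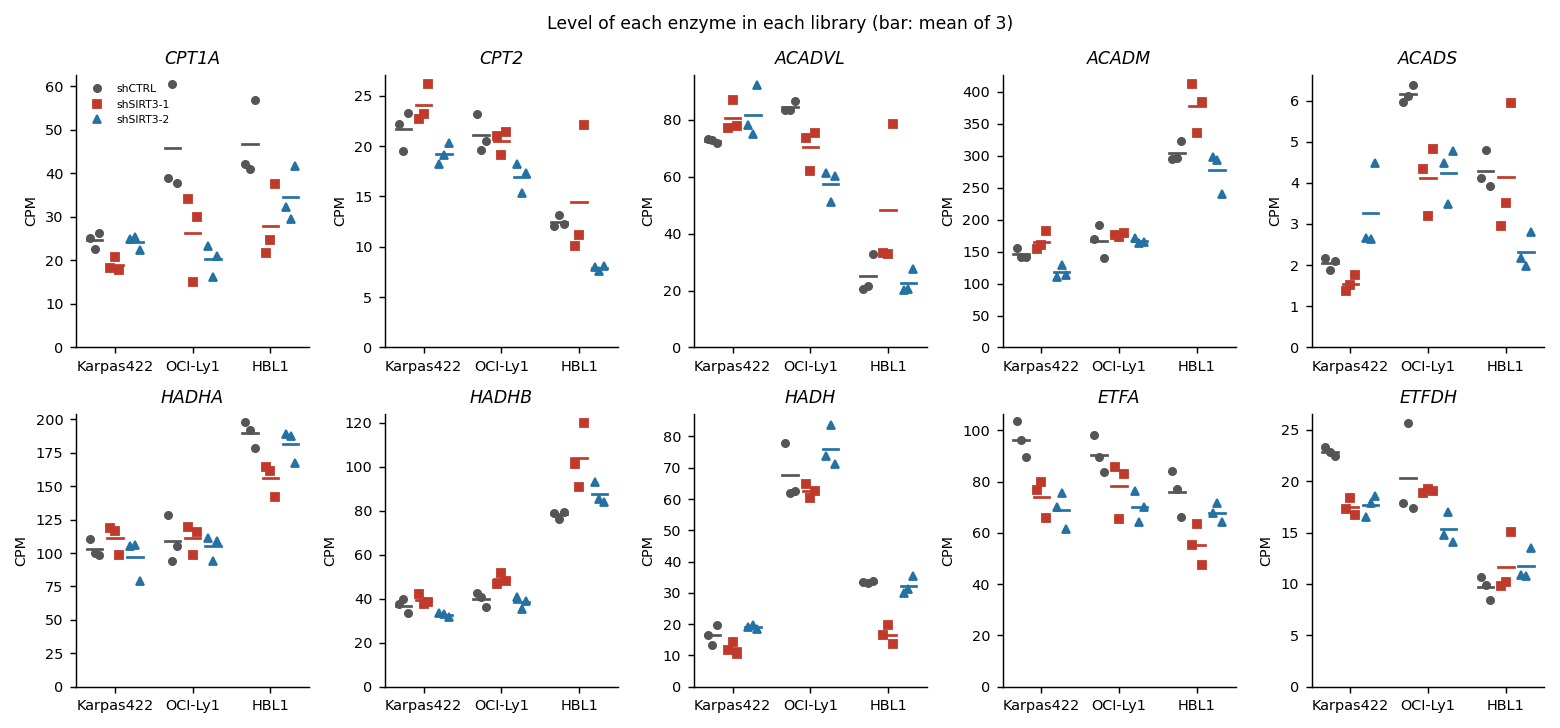
CPM of each enzyme in every library, by line and hairpin, with bars at the mean of 3 and axes from 0. ETFA is lower with both hairpins in Karpas422, HADH is lower with shSIRT3-1 in HBL1, and the highest shSIRT3-1 points of CPT2 and ACADVL in HBL1 are from a single library.

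Counted by line, the members called differed. In Karpas422, limma called 0 of 10 at 1.5-fold with either hairpin (background 16% with shSIRT3-1 and 15% with shSIRT3-2), where an unadjusted p under 0.05 gave 0 and 1, as did edgeR and DESeq2. It called 3 of 10 at any fold with each (background 33.7% and 31.1%). In OCI-Ly1, 0 and 1 of 10 were called at 1.5-fold (background 4.5% and 6.41%), and 0 and 2 at any fold (background 7.31% and 9.42%). In OCI-Ly1 with shSIRT3-1, 4 of 10 had an unadjusted p under 0.05, and edgeR called 0 and DESeq2 called 3 at any fold. With the replicate block the OCI-Ly1 counts at any fold were 1 and 5, the additional shSIRT3-2 members being CPT2, ACADS and ETFA. The backgrounds here are of the main limma fit. The share of all genes under edgeR, DESeq2 or the block is not given, so those counts have no background. In HBL1, 2 and 1 of 10 were called at 1.5-fold (background 27.7% and 23.5%), and 5 and 1 at any fold (background 40% and 34.7%). The block added CPT1A with shSIRT3-2 in HBL1 (log2 fold change −0.43, limma adjusted p = 0.012). Several calls within a line lay close to the threshold and were lost when 1 library was left out, with log2 fold changes of the same sign. In Karpas422 the ETFDH calls and the shSIRT3-2 call of ETFA held in 9 of 9 single-library omissions, whereas CPT1A lost its shSIRT3-1 call in 3 of 9, ETFA in 4 of 9 and ACADM its shSIRT3-2 call in 6 of 9. In OCI-Ly1 CPT1A lost its call in 6 of 9 (limma adjusted p at most 0.149) and ACADVL in 3 of 9 (at most 0.0713). In HBL1 the call of HADH held in 9 of 9, and those of HADHB, ETFA, CPT1A, ACADS and HADHA were lost in 2, 3, 4, 5 and 8 of 9. Over these omissions the log2 fold change stayed between −1.27 and −0.93 for CPT1A in OCI-Ly1, between −0.99 and −0.60 for CPT1A in HBL1, between −0.38 and −0.27 for ACADM and between −0.33 and −0.22 for HADHA. The interaction test called 4 of 10 members (ACADS, ACADVL, HADH and ETFDH), beside 41.8% of all genes, and 0 of 10 when the libraries numbered 1 were left out of all groups, where 348 genes were called.

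The members did not vary as 1 block. Over 27 libraries, with line means removed, their 45 pairs had a median Pearson r of 0.13, and 25 were above 0. The closest pair was CPT2 and ACADVL (r = 0.72), then HADHA and ETFA (0.65), and the most opposed was HADHB and HADH (−0.78). CPT1A had the highest r to the mean of the 10 (0.83) and HADH the lowest (−0.06). Each member is part of this mean, and members of larger spread weigh more in it, so this order is partly built in. Outside the lists, the genes most like that mean were LY96 (r = 0.86), SLC25A45 (0.86), POF1B (0.84), TP53TG1 (0.83) and ZC2HC1C (0.83). These correlations share libraries and depth and are descriptions.

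Other genes of fatty acid oxidation were counted from lists written from general knowledge of the pathway. Of 27 further mitochondrial genes tested of 32, 8 were lower and 2 higher with shSIRT3-1 at any fold, and 9 lower and 4 higher with shSIRT3-2. Of 14 peroxisomal genes, 3 were lower and 0 higher with shSIRT3-1, and 4 lower and 3 higher with shSIRT3-2. Of 11 regulators tested of 15, 3 were lower and 3 higher, and then 3 lower and 1 higher. These counts stand beside the backgrounds of 22.3% lower and 15.6% higher for shSIRT3-1, and 21.7% and 16.3% for shSIRT3-2. Lower at 1.5-fold with both hairpins were ECI1, an isomerase for unsaturated chains (log2 fold changes −0.62 and −0.83), AMACR, a racemase of branched chains (−1.04 and −0.72), and RXRA, a nuclear receptor partner (−0.99 and −0.91). They are 1 of 27, 1 of 14 and 1 of 11 genes tested. Of all genes, 5.09% passed 1.5-fold with both hairpins in the same direction, so these counts are near the background. AMACR and RXRA each passed the filter on low values within 1 line only. AMACR was tested in Karpas422, with log2 fold changes of −1.53 and −1.06 (limma adjusted p = 0.0011 and 0.0062). RXRA was tested in HBL1, with −3.04 and −2.75 (limma adjusted p = 0.00014 and 0.00025), so the values over 3 lines average in lines where these genes were near or under the filter. ECI1 was tested in each line and was called at 1.5-fold with both hairpins in HBL1 alone (−1.09 and −1.58, limma adjusted p = 0.0022 and 0.00048). The remaining genes past 1.5-fold, named after their values were seen, were ACADSB (−0.70), ACACB (−1.26) and ESRRA (0.62) with shSIRT3-1, and MLYCD (−0.70), SIRT5 (−0.61) and ACAD9 (0.81) with shSIRT3-2. Of the regulators among these, ACACB (−0.56, limma adjusted p = 0.048) and ESRRA (0.37, adjusted p = 0.020) also passed at any fold with shSIRT3-2. SIRT5 did not pass with shSIRT3-1 (−0.31, limma adjusted p = 0.12).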

How the data were processed

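Total RNA of 27 libraries was made into paired-end libraries with random priming. The authors aligned the reads with STAR to hg19 and counted them against RefSeq genes with Rsubread, with versions not given in the sources used here. The deposited values, named FPKM by the submitters, are CPM in form: with a tolerance of 1e-06, 100% of values were whole multiples of 1 read, worth 0.00831 to 0.01572, whatever the gene. The authors' divisors share a factor of 1766 (in thousandths of a read) in all libraries, so true CPM may be higher by a constant 1.766-fold, which no fold change contains.

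Genes at 1 CPM or more in at least 3 libraries were tested on log2(CPM + 0.1) with limma 3.58.1 (R 4.3.3, trended variance) and Benjamini-Hochberg adjustment over all genes. Terms were cell line and hairpin over the 3 lines, hairpin within each line, cell line in shCTRL cells, and the line-by-hairpin interaction. A fold change is on this scale, which understates low genes. Calls needed a fold change above 1.5 and an adjusted p under 0.05, or the adjusted p alone. Recovered reads were also tested with edgeR 4.0.16, which called 4924 genes in the interaction test beside 5471 by limma, and with DESeq2 1.42.0. Alternatives were other pseudocounts, filters, scalings and tools, a replicate block, and leaving out libraries, replicate numbers or lines. On simulated data the tests recovered most changed genes, except that for 2-fold changes limited to 1 line the interaction test missed more of the genes given such a change than it found, so a member it did not call may still differ between lines.

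The labels number the replicates without saying what a number marks. Deviations of same-numbered libraries from their group means correlated above 0.1 in all 9 pairs of OCI-Ly1 and of HBL1 and in 8 of 9 pairs of Karpas422 (26 of 27 pairs). Karpas422 thus missed a rule of 9 of 9 by a single pair, but its mean r did not set it apart. Same-numbered libraries had a mean r of 0.398 for HBL1, 0.291 for Karpas422 and 0.271 for OCI-Ly1. For libraries of different numbers the means were −0.163, −0.128 and −0.126 in that order. Deviations from a group's own mean cancel within the group, so these negative means largely follow from the same-number means. By the same-number means, libraries of the same number were alike within each line. No pair of libraries agreed within sampling noise. The members and the other lists were chosen with earlier results of these data known. The genes named were SIRT3, all members, genes of the other lists past 1.5-fold with both hairpins, those of largest change with either, and the 5 most like the members' mean. Gene positions and promoter sequences are from GRCh37 with the GENCODE v44lift37 annotation.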

Additional observations from a re-analysis of the deposited data

Results flagged for a closer look

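Of the 10 enzymes, 4 responded to the SIRT3 hairpins differently by line, according to limma's interaction F test with Benjamini-Hochberg adjustment over all genes. The adjusted p was 0.00188 for ACADS, 0.0105 for HADH, 0.0244 for ACADVL and 0.0328 for ETFDH. ACADS with shSIRT3-2 was higher than every control in Karpas422 and lower than every control in HBL1. HADH with shSIRT3-1 separated from its controls in HBL1 only. ACADVL lay below every control in OCI-Ly1 with both hairpins, and its highest HBL1 value came from the library that stood apart. ETFDH was lower in Karpas422 with both hairpins and lost its call in 8 of 27 single-library omissions. Among the other genes named, the same test gave an adjusted p of 0.00493 for ECI1, 0.0097 for MLYCD, 6.11e-07 for RXRA and 2.15e-05 for ACACB. RXRA passed the filter on low values within HBL1 only. A fall could hardly be measured in the other lines, so its value cannot separate a different response from a different level. With 41.8% of all genes called, 4 of 10 is near the background.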

How the results depend on the processing

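Of 3090 values of single genes under the alternatives, for 120 results, 2837 kept their direction and side of the threshold, 99 fell short of it and 68 came to pass it. A further 86, from 30 results, changed sign without passing the threshold in either setting, and 0 changed sign where a call was made. Counts of members between shCTRL lines stayed within 1.5 times their values under every alternative run. For the rest, counts at 1.5-fold are given first. Except for the interaction test, the share of all genes called under each alternative is not given here, so the changed counts have no background. Over the 3 lines, shSIRT3-1 gave 1 member (0 to 1 with replicates left out), and 5 at any fold became 3 without the HBL1 line. With shSIRT3-2 the count of 0 became 2 without the Karpas422 line (0 to 1 with replicates left out), and 3 at any fold ranged from 1 to 4 with replicates left out. Between the hairpins 1 became 0 under quantile normalization, 2 without Karpas422 and 0 without HBL1 (0 to 1 with replicates left out). The interaction count of 4 became 1 without Karpas422, 2 without OCI-Ly1 and 2 without HBL1, and ranged from 0 to 6 with replicates left out. It was 6 without HBL1 shSIRT3-1 replicate 3, where 5446 of 13036 genes were called. Without each line in that order, 3088 of 12632, 3764 of 12652 and 1181 of 12131 genes were called. The main fit called 5471 of 13076, so fewer calls were made among all genes too when a line was left out.

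In Karpas422, 3 at any fold with shSIRT3-1 became 1 with unfiltered edgeR (1 to 4 with replicates left out). With shSIRT3-2, 0 became 1 (ACADS) under quantile normalization, median-ratio scaling, the replicate block, no variance trend, edgeR, unfiltered edgeR and DESeq2. In OCI-Ly1 with shSIRT3-1, 0 became 1 under the replicate block, 2 with DESeq2 and 1 in the fit of all 27 libraries, and 0 at any fold became 1, 3 and 1 (0 to 1 with replicates left out). With shSIRT3-2, 1 became 0 without a filter and 0 with no variance trend (0 to 1 with replicates left out). At any fold 2 became 1 without a filter, 5 under the block, 1 with no variance trend, 5 with DESeq2 and 1 in the fit of 27 libraries (0 to 3 with replicates left out). In HBL1 shSIRT3-1 ranged from 1 to 2 at 1.5-fold and from 1 to 5 at any fold with replicates left out. With shSIRT3-2, 1 became 0 under quantile normalization, 0 with unfiltered edgeR and 2 in the fit of 27 libraries (0 to 2 with replicates left out), and 1 at any fold became 0, 0 and 2, and 2 under the block (0 to 3 with replicates left out). The other genes of fatty acid oxidation past 1.5-fold with shSIRT3-2 numbered 6, then 3 with a pseudocount of 1, 3 under quantile normalization and 2 without HBL1 (3 to 7 with replicates left out). With the longest transcript 3 of 10 members kept their place in the order of levels. The cause of these changes was not tested.

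The replicate block (a term for the replicate number) changed calls where given above and in the text. Beside these it gave ACADVL between the hairpins an adjusted p of 0.042 (limma, log2 difference −0.41) and ETFA between HBL1 and OCI-Ly1 controls an adjusted p of 0.025 (−0.26). Both are fits of several lines, where the term is shared by the lines and does not pair libraries within each line. Likeness by number was measured within lines only. It changed no other call. Quantile normalization moved the median log2 fold change of all genes in HBL1 with shSIRT3-1 from −0.11 to 0.04. Depth limited ACADS most, with 127 to 705 reads per library. RNA levels do not measure the enzymes or their acetylation.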
